A study of Homo sapiens with 12 samples.

Results

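The unfolded protein response and the integrated stress response were examined as a set of 36 genes listed by name, with earlier results of these data known. All 36 were among the 11963 genes measured, 17 of them ATF4-type genes and 19 chaperone genes. The arrays came from HCC827, a line established from a human lung adenocarcinoma with an activating mutation of EGFR, and from its derivatives, in 4 groups of 3 arrays. ERC4 cells are an erlotinib-resistant line, set against the parental HCC827 cells; erlotinib inhibits the EGFR kinase. Esh9-1 cells carry a lentivirus for an shRNA directed at EGFR, set against NT cells, which carry a lentivirus for a non-target shRNA. All 4 groups grew in RPMI medium with 5% FBS, and Esh9-1 and NT cells also with 5 ug/ml puromycin. ERC4 is 1 line and Esh9-1 is 1 shRNA label, so an effect of that line or shRNA and an effect of resistance or of EGFR loss cannot be told apart. Since no label states that the replicates were cultured separately, the p-values reflect the spread among these samples alone, and this may be a technical spread.

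The unfolded protein response begins at sensors in the membrane of the endoplasmic reticulum (ER). IRE1 (gene ERN1) splices the XBP1 transcript and ATF6 is cleaved to a transcription factor, and both raise ER chaperones and the machinery that removes misfolded proteins. Another sensor, PERK, is one of the kinases that phosphorylate eIF2alpha, the common step of the integrated stress response, which also answers amino acid shortage and haem lack. This phosphorylation lowers general translation while it favours translation of ATF4, a transcription factor for amino acid synthesis, transport and stress effector genes. ATF4 and XBP1 are largely controlled at translation and splicing, steps that levels of 1 transcript do not show.

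Promoters were read for 32 of the 36 genes, from RefSeq windows on GRCh38.p14 that run from 250 bases before the transcript start to 50 after it. All 12 genes with a motif match are shown, since the ER stress elements were found among the chaperone genes and not among the ATF4-type genes. Capitals mark the motif, each line runs 5′ to 3′ along the gene's own strand, and 20 bases stand on either side of each match. The first set holds the ER stress response element, CCAAT and CCACG with 9 bases between them, on either strand.
HSPA5, chr9:125241371-125241429, - strand: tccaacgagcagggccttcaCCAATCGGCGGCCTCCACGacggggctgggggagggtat
HSP90B1, chr12:103930196-103930359, + strand: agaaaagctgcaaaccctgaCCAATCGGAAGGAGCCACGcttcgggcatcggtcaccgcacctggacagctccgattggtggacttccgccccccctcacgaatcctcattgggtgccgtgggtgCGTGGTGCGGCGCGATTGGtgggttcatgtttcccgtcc
XBP1, chr22:28800583-28800641, - strand: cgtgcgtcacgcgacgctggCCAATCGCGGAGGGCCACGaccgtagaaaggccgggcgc
CANX, chr5:179698758-179698816, + strand: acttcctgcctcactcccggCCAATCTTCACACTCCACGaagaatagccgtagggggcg
CALR, chr19:12938364-12938422, + strand: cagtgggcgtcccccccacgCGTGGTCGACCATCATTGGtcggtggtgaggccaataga
PDIA6, chr2:10812833-10812891, - strand: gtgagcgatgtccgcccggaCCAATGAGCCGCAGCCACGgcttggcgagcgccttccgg

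The next set holds the ER stress response element II, ATTGG and CCACG with 1 base between them, which is a shorter element of the same response.
HYOU1, chr11:119057254-119057410, - strand: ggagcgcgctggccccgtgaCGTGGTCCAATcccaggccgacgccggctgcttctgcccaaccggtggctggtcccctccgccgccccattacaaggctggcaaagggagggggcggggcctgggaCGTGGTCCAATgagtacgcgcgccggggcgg
SDF2L1, chr22:21642094-21642144, + strand: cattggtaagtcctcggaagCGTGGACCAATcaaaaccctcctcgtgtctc
HERPUD1, chr16:56932005-56932055, + strand: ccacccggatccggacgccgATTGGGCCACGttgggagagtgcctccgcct

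The last set holds the C/EBP-ATF response element, searched as TTNCATCA on both strands, which ATF4 and its C/EBP partners are known to bind.
ASNS, chr7:97872449-97872496, - strand: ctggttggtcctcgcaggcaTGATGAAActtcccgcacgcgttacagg
CHAC1, chr15:40953242-40953289, + strand: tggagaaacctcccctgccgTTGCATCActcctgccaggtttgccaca
CEBPG, chr19:33374051-33374098, + strand: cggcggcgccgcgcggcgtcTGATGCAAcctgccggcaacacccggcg

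One or the other ER stress element was found in 9 of the 17 chaperone genes with a window (52.9%) and in 0 of the 15 ATF4-type genes with one. Over all 27305 genes of the promoter table it was found in 44 (0.161%), and over the 15843 protein-coding genes in 36 (0.227%). HSP90B1 and HYOU1 each held 2 copies. The C/EBP-ATF element was found in 3 of the 15 ATF4-type genes (20%), in HERPUD1 among chaperone genes, and in 4.46% of all genes of the table. The unfolded protein response element, TGACGTGG, was found in HYOU1, where it overlaps an ER stress response element II, and in 0.927% of all genes. These matches lay upstream of the transcript start, except that in another window of CANX, for another of its starts, the element spans the start. A match is a description of these letters and does not show that a factor binds there. The motifs were searched because they are already known as elements of these responses. Their higher shares among the genes of the set are thus no independent result.

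**Figure D1:**
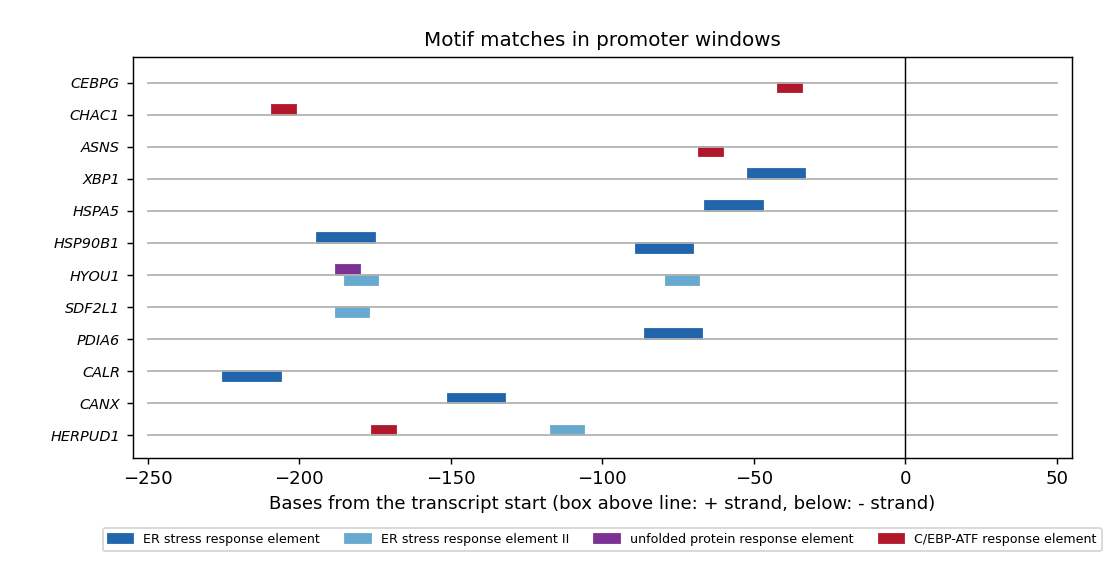
Position of each motif match in the promoter windows of 12 genes, in bases from the transcript start, with boxes above the line for the strand of the gene and below it for the other strand. The C/EBP-ATF element (red) is seen in 3 ATF4-type genes and HERPUD1, and the ER stress elements (blue) are seen in 9 chaperone genes.

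Levels are given as log2(value + 1) of the deposited intensities, and a difference is a log2 fold change with limma's standard error. A gene was called where the Benjamini-Hochberg adjusted p over all genes was under 0.05. Array medians lay at 50.6 ± 0.59 (SD, n = 3) in ERC4 and 52.8 ± 0.18 in parental cells, and at 143.1 ± 0.40 in Esh9-1 and 142.6 ± 1.18 in NT cells, as 2 separately normalized sets of 6 arrays would lie. Each comparison stays within 1 set and no level is compared across the sets. EGFR fell by 1.30 on the log2 scale in Esh9-1 cells against NT cells (adjusted p = 1.98e-09) and was higher by 0.21 in ERC4 cells against parental cells (adjusted p = 0.0249). The spiked-in hybridisation controls averaged 9.48 in ERC4 and 11.04 in parental cells, and 11.92 in Esh9-1 and 11.37 in NT cells. The 3′ minus 5′ log2 signal of ACTB, a sign of RNA or labelling quality, was 1.07 ± 0.15 in Esh9-1 and 0.20 ± 0.03 in NT cells (SD, n = 3 each), and 0.19 ± 0.04 in ERC4 and 0.22 ± 0.05 in parental cells. The hybridisation controls thus differed between the groups of both comparisons and the ACTB value between Esh9-1 and NT cells, and their part in the results was not tested.

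The epithelial identity of the line was checked on 9 measured markers, all above the array median in ERC4, parental and NT cells and 7 of them in Esh9-1 cells. Their mean log2 level per array ran from 8.87 to 8.95 in ERC4 and 10.3 to 10.4 in parental cells, with 1 marker higher and 7 lower, and from 8.80 to 8.87 in Esh9-1 and 11.7 to 11.8 in NT cells, with all 9 lower. CDH1, the epithelial cadherin, was at a log2 fold change of -2.75 in ERC4 against parental cells and of -6.28 in Esh9-1 against NT cells. Of 12 fibroblast and endothelial markers 1 lay above the array median in ERC4 and 2 in parental cells, and 1 in Esh9-1 and 1 in NT cells. Their mean ran from 4.89 to 4.92 in ERC4 and 5.06 to 5.14 in parental cells, and from 6.08 to 6.13 in Esh9-1 and 5.96 to 5.99 in NT cells, where LUM was at a log2 fold change of 2.56. Of 9 leukocyte markers 1 lay above it in ERC4 and 2 in parental cells, and 0 in Esh9-1 and in NT cells. Their mean ran from 4.86 to 4.89 in ERC4 and 5.05 to 5.12 in parental cells, and from 5.63 to 5.71 in Esh9-1 and 5.66 to 5.74 in NT cells.

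In ERC4 cells the stress genes were mostly higher by small amounts: 20 of the 36 rose, 2 fell (ATF4 and DDIT4) and 14 were not called. Of the chaperone genes 11 of 19 rose and 0 fell, and of the ATF4-type genes 9 of 17 rose and 2 fell. The median log2 fold change was 0.24 over the 36 genes, 0.26 over the ATF4-type and 0.23 over the chaperone genes, against -0.04 over all genes. The calls took in 57.7% of all genes, with 28.9% higher and 28.8% lower. Bright genes, however, were called higher more often: among the 3987 brightest genes, which include 26 of the 36, 52.8% were higher and 16.8% lower with a median of 0.21, a division made after the values were seen. The count of 20 higher is close to that share. In these bulk cultures, fewer cells with a transcript and less of it per cell cannot be told apart. Only 3 of the 36 reached 2-fold (6.29% over all genes), namely VLDLR, TRAM1 and DDIT4, and the arrays of the groups did not overlap for 21 (60.5% over all genes). Quantile normalization left 7 chaperone genes higher and 3 lower (ATF6, PDIA4 and PDIA6), and within each set 6 and 3. ATF4-type genes were then 6 higher and 5 lower under either form. The medians were also smaller, at 0.09 over the chaperone genes and 0.09 over the ATF4-type genes with 12 arrays normalized together, and at 0.09 and 0.08 within each set. Median centring gave 13 and 0 for chaperone genes and 9 and 2 for ATF4-type genes, and 3849 and 2679 over all genes.

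Esh9-1 cells gave unlike counts for the 2 groups of genes, a difference that was not tested. Of the ATF4-type genes 6 rose and 9 fell, with a median log2 fold change of -0.18, and of the chaperone genes 10 rose and 3 fell, with a median of 0.21, against -0.02 over all genes. Together 16 of the 36 rose, 12 fell and 8 were not called. The calls took in 49.9% of all genes, with 25.3% higher and 24.6% lower, so both directions were counted more often among the stress genes than over all genes. Among the 3987 brightest genes 34.8% were higher and 32.8% lower, and the 12 of 36 lower lie close to that second share. Only 4 of the 36 reached 2-fold (9% over all genes): STC2 higher, and DDIT4, GDF15 and TRAM1 lower, each by its brightest probe set. The arrays did not overlap for 33 of the 36 (61.3% over all genes). These counts held their split under quantile normalization and median centring, with 8 to 10 chaperone genes higher and 3 lower, and 6 ATF4-type genes higher and 8 to 9 lower. Over all genes quantile normalization gave 2784 higher and 2573 lower with 12 arrays together, and 3017 and 2882 within each set. Median centring gave 2982 and 3003 over all genes. Averaged over all probe sets of each gene, 5 chaperone genes were lower.

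**Figure D2:**
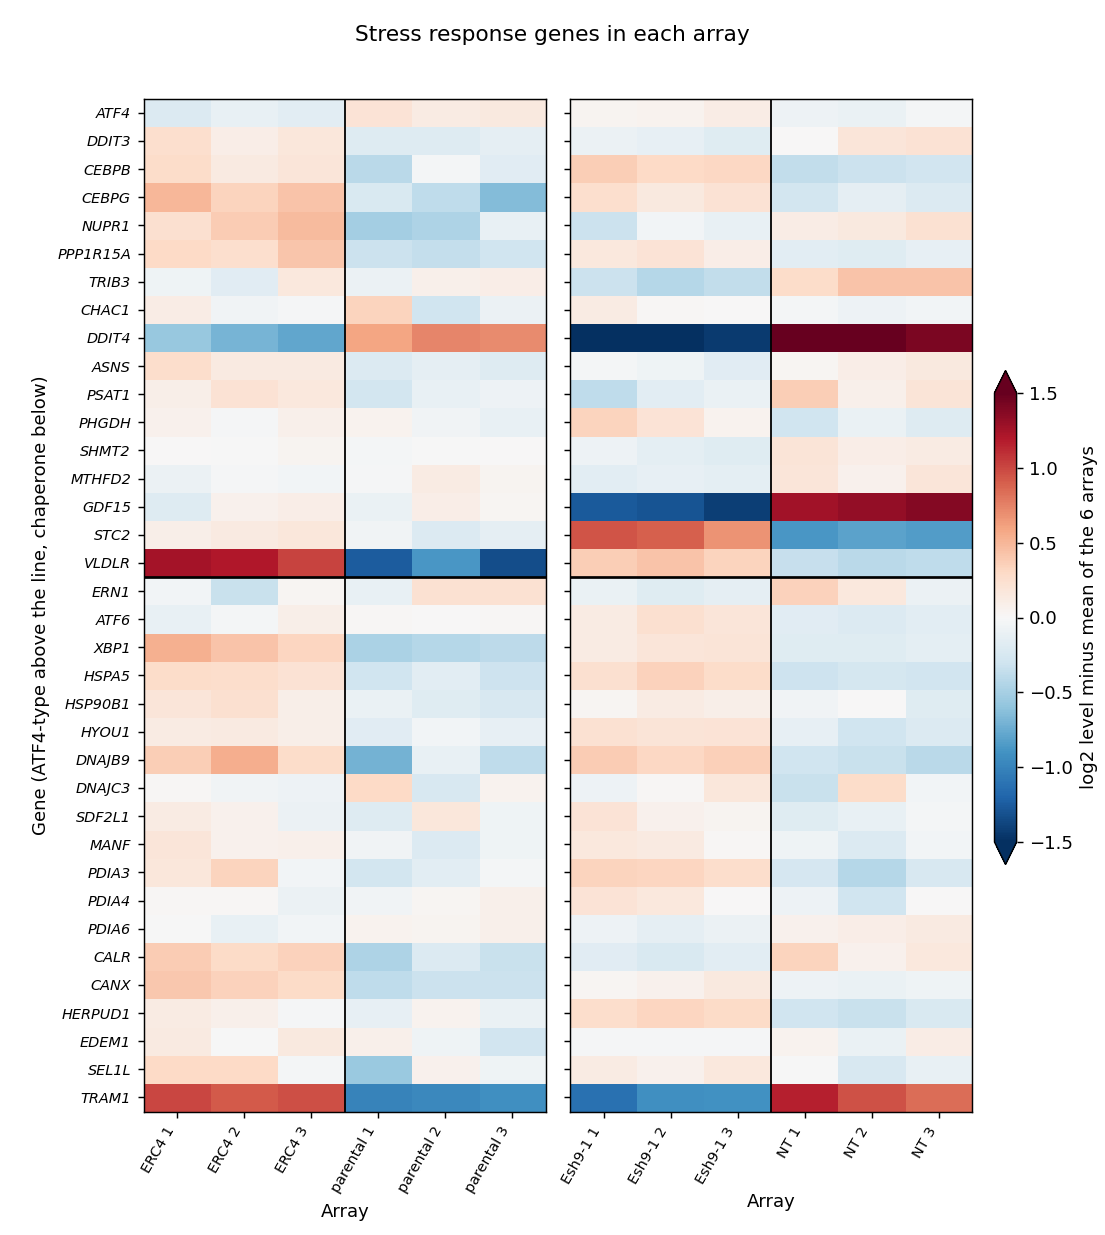
Log2 level of each of the 36 genes in each of the 12 arrays, minus the gene's mean over the 6 arrays of its set (colour, in log2 units, clipped at the ends of the scale). DDIT4 is low in all ERC4 and Esh9-1 arrays, GDF15 is low in Esh9-1 against NT arrays, and TRAM1 is high in ERC4 arrays and low in Esh9-1 arrays.

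The transcription regulators of the ATF4 arm came first. ATF4, the factor that gives the arm its name, had log2 levels of 9.80, 9.90 and 9.86 in ERC4 cells, against 10.22, 10.14 and 10.16 in parental cells. All ERC4 arrays lay below all parental arrays, with a log2 fold change of -0.32 ± 0.06 (SE, limma adjusted p = 0.00044). In the other set its levels were 11.87, 11.89 and 11.94 in Esh9-1 cells, against 11.76, 11.73 and 11.80 in NT cells, higher in each Esh9-1 array but not called (0.14 ± 0.06 on the log2 scale, SE, limma adjusted p = 0.0716). DDIT3, which encodes the pro-apoptotic factor CHOP, went the other way. Its levels were 7.24, 7.09 and 7.16 in ERC4 cells, against 6.80, 6.79 and 6.86 in parental cells, and 8.28, 8.23 and 8.18 in Esh9-1 cells, against 8.36, 8.54 and 8.58 in NT cells. No array of one group overlapped the other in either set, and DDIT3 rose by 0.35 in ERC4 cells (limma adjusted p = 0.000897) and fell by 0.26 in Esh9-1 cells (adjusted p = 0.00678).

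NUPR1, a small chromatin-associated protein induced by stress, was among the dimmest of the genes. It had levels of 6.03, 6.17 and 6.27 in ERC4 cells, against 5.28, 5.33 and 5.68 in parental cells, and 5.39, 5.67 and 5.60 in Esh9-1 cells, against 5.82, 5.85 and 5.94 in NT cells. It rose in ERC4 cells by 0.73 ± 0.11 (SE, limma adjusted p = 4.79e-05) and its Esh9-1 difference was -0.32 ± 0.11 (SE, limma adjusted p = 0.0221). The last call was lost without NT replicate 3 (adjusted p = 0.0753) or Esh9-1 replicate 1 (adjusted p = 0.109), and NUPR1 lay under the array median in parental, Esh9-1 and NT cells. CEBPG, a C/EBP protein that pairs with ATF4 and carries the C/EBP-ATF element printed above, rose in both comparisons. Its levels were 6.08, 5.92 and 6.01 in ERC4 cells, against 5.35, 5.19 and 4.93 in parental cells, and 8.36, 8.26 and 8.33 in Esh9-1 cells, against 7.82, 7.97 and 7.90 in NT cells, with log2 fold changes of 0.84 ± 0.09 (SE, limma adjusted p = 3.32e-06) and 0.42 ± 0.09 (SE, limma adjusted p = 0.00176). CEBPB, another C/EBP factor, had log2 levels of 9.48, 9.33 and 9.38 in ERC4 cells, against 8.80, 9.17 and 9.03 in parental cells, and 11.10, 11.03 and 11.04 in Esh9-1 cells, against 10.36, 10.41 and 10.44 in NT cells. The groups did not overlap in either set. CEBPB rose by 0.40 ± 0.09 in ERC4 and by 0.65 ± 0.09 in Esh9-1 cells, and its ERC4 call ended after quantile normalization.

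Among the effectors, DDIT4, which encodes the mTORC1 inhibitor REDD1, was the gene of the set with the lowest log2 fold change in both comparisons. Its levels were 9.80, 9.67 and 9.58 in ERC4 cells, against 10.96, 11.10 and 11.07 in parental cells, and 9.60, 9.58 and 9.68 in Esh9-1 cells, against 12.69, 12.62 and 12.53 in NT cells. Each ERC4 and Esh9-1 array lay more than a log2 unit below every array it was compared with. DDIT4 was 2.57-fold lower in ERC4 cells (-1.36 ± 0.07 on the log2 scale, SE, limma adjusted p = 2.81e-09) and 7.93-fold lower in Esh9-1 cells (-2.99 ± 0.07 on the log2 scale, SE, limma adjusted p = 2.43e-13). TRIB3, a pseudokinase that restrains ATF4 and CHOP, had log2 levels of 10.26, 10.15 and 10.20 in Esh9-1 cells, against 10.853, 11.003 and 11.002 in NT cells, without overlap, a log2 fold change of -0.75 ± 0.09 (SE, limma adjusted p = 4.19e-06). In ERC4 and parental cells its arrays overlapped, between 8.35 and 8.68 in ERC4 and between 8.43 and 8.62 in parental cells. PPP1R15A, the GADD34 subunit that brings a phosphatase to eIF2alpha, had log2 levels of 8.03, 7.99 and 8.15 in ERC4 cells, against 7.41, 7.38 and 7.44 in parental cells, and 9.71, 9.76 and 9.66 in Esh9-1 cells, against 9.39, 9.37 and 9.43 in NT cells. The groups were separate in both sets. PPP1R15A rose by 0.65 ± 0.06 in ERC4 and 0.31 ± 0.06 in Esh9-1 cells, and both of its probe sets were called higher each time. CHAC1, which degrades glutathione, was called in neither comparison (0.03 in ERC4 and 0.10 in Esh9-1 cells), though without parental replicate 1 it was called in ERC4 cells (0.21, limma adjusted p = 0.0479), and it lay under the array median in ERC4 and parental cells.

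The amino acid and one-carbon enzymes differed little in ERC4 cells, where 2 of 5 rose, and in Esh9-1 cells 4 of 5 fell and 1 rose. Shares over all genes were 28.9% higher in ERC4 cells, and 24.6% lower and 25.3% higher in Esh9-1 cells. Those among the 3987 brightest genes were 52.8% higher in ERC4 cells, and 32.8% lower and 34.8% higher in Esh9-1 cells. ASNS, asparagine synthetase, whose C/EBP-ATF element is printed above, had log2 levels of 7.63, 7.50 and 7.50 in ERC4 cells, against 7.17, 7.23 and 7.18 in parental cells, and 10.20, 10.18 and 10.07 in Esh9-1 cells, against 10.26, 10.34 and 10.38 in NT cells. The groups did not overlap in either set. ASNS rose in ERC4 cells (0.35 ± 0.07 on the log2 scale, SE, limma adjusted p = 0.00047), and its small difference in Esh9-1 cells (-0.18 ± 0.07 on the log2 scale, SE, limma adjusted p = 0.0408) lost its call without NT replicate 2 or 3 or Esh9-1 replicate 2 or 3, with limma adjusted p-values up to 0.155. PSAT1, an aminotransferase of serine synthesis, rose by 0.31 ± 0.09 in ERC4 cells, a call lost without parental replicate 1 (limma adjusted p = 0.0542) and after quantile normalization, and fell by 0.43 in Esh9-1 cells. PHGDH, the first enzyme of the same route, was the enzyme that rose in Esh9-1 cells: 9.25, 9.12 and 8.96 in Esh9-1 cells, against 8.62, 8.81 and 8.72 in NT cells, a log2 fold change of 0.40 ± 0.08 (SE, limma adjusted p = 0.000945). The mitochondrial folate enzymes SHMT2 and MTHFD2 had Esh9-1 log2 fold changes of -0.27 and -0.29, both called, and ERC4 values of 0.02 and -0.10, neither called. The other SHMT2 probe sets were called higher in ERC4 cells, 214095_at by 0.27 (limma adjusted p = 0.0132) and 214437_s_at by 0.26 (adjusted p = 0.00424). PHGDH was not called in ERC4 cells (0.08).

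The 3 genes for secreted or surface proteins held the widest spread. GDF15, a secreted stress cytokine, had log2 levels of 6.75, 6.71 and 6.60 in Esh9-1 cells, against 9.27, 9.33 and 9.39 in NT cells. Esh9-1 cells were thus 6.25-fold lower (-2.64 ± 0.09 on the log2 scale, SE, limma adjusted p = 3.57e-12) and lay under their array median, where a fold may be understated. A second, dimmer GDF15 probe set, 221576_at, gave 0.13 there and was not called, so the fall rests on 221577_x_at. In ERC4 and parental cells GDF15 overlapped, with a difference of -0.02 ± 0.09, while 221576_at was called lower there (-0.21, limma adjusted p = 0.0249). Under the array medians throughout, 221576_at averaged 3.65 in ERC4 and 3.86 in parental cells, and 5.05 in Esh9-1 and 4.92 in NT cells. STC2, a secreted glycoprotein, had log2 levels of 11.19, 11.15 and 10.93 in Esh9-1 cells, against 9.37, 9.45 and 9.41 in NT cells, which is 3.20-fold higher in Esh9-1 cells (1.68 ± 0.08 on the log2 scale, SE, limma adjusted p = 1.51e-10), and its other probe set gave 2.08. The rise of STC2 in ERC4 cells was small (0.26 ± 0.08) and ended after quantile normalization. VLDLR, a lipoprotein receptor and ATF4 target, had log2 levels of 8.001, 7.955 and 7.769 in ERC4 cells, against 5.51, 5.88 and 5.43 in parental cells. All ERC4 arrays lay far above the parental ones, whose mean was under their array median. VLDLR was 4.92-fold higher (2.30 ± 0.10 on the log2 scale, SE, limma adjusted p = 3e-10), a fold that dim signal may understate. It was also higher in Esh9-1 cells, by 0.76 ± 0.10.

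**Figure D3:**
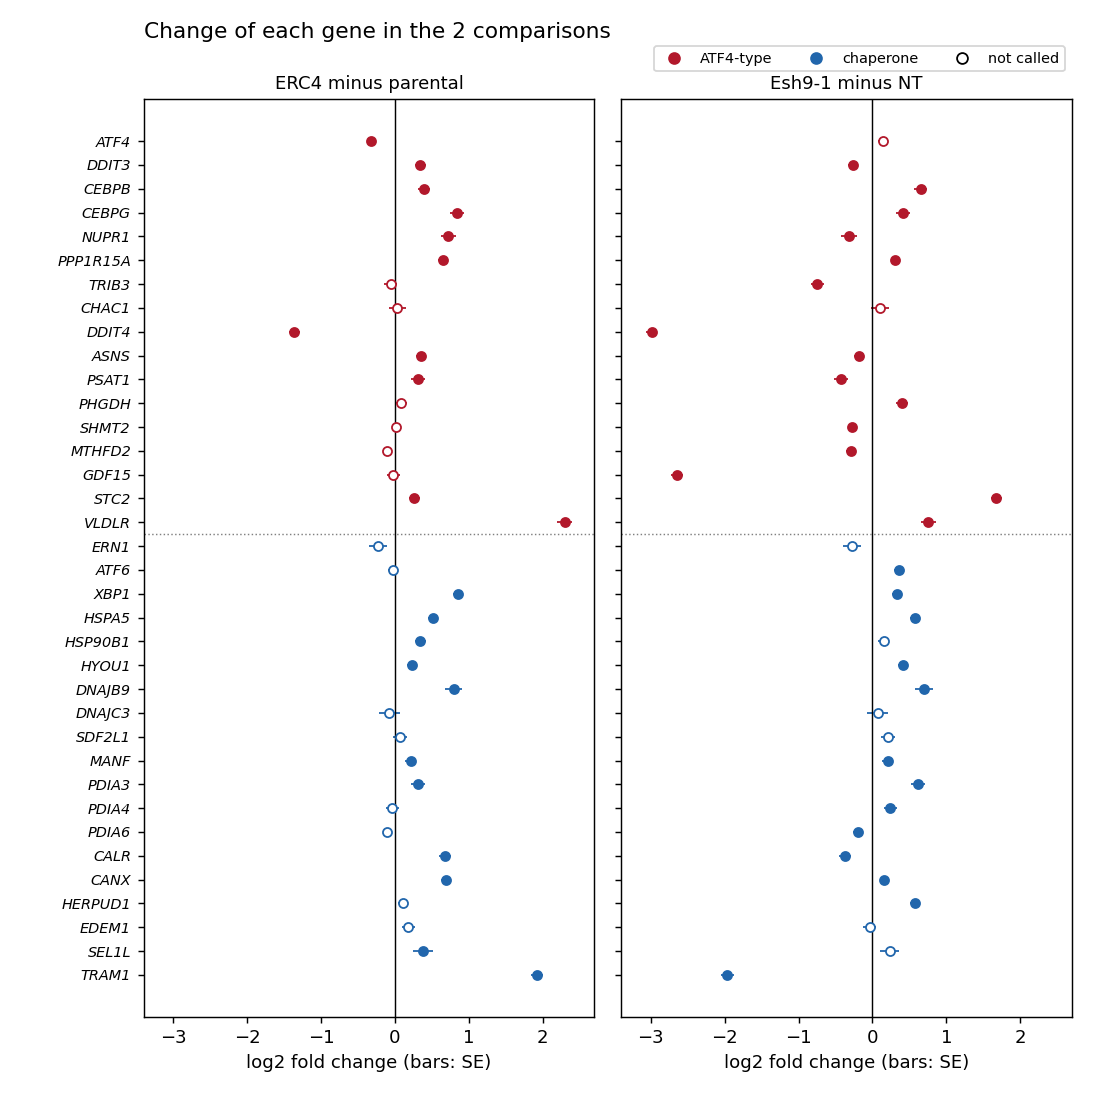
Log2 fold change of each of the 36 genes in the ERC4 against parental comparison and the Esh9-1 against NT comparison, with bars for limma's standard error and open points for genes that were not called. ATF4-type genes (red) lie on both sides of 0 in Esh9-1 cells, and the called chaperone genes (blue) lie above 0 in both panels apart from TRAM1, CALR and PDIA6 in Esh9-1 cells.

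Of the sensors, ERN1 was called in neither comparison, at -0.23 ± 0.12 in ERC4 and -0.27 ± 0.12 in Esh9-1 cells. It was called lower in ERC4 cells without parental replicate 1 (-0.34, limma adjusted p = 0.0307) and in Esh9-1 cells without NT replicate 3 (-0.39, adjusted p = 0.019) or, as the spread is shared, without parental replicate 1 (adjusted p = 0.0498). ATF6 rose in Esh9-1 cells, with 9.32, 9.43 and 9.37 in Esh9-1 cells, against 9.02, 8.98 and 9.03 in NT cells, a log2 fold change of 0.36 ± 0.07 (SE, limma adjusted p = 0.000325). Its second probe set gave 1.73 there, so the size of the change depends on the probe set. In ERC4 cells ATF6 was at -0.03, not called. XBP1, the factor downstream of IRE1, rose in both: 7.55, 7.44 and 7.33 in ERC4 cells, against 6.54, 6.58 and 6.62 in parental cells, and 9.26, 9.32 and 9.33 in Esh9-1 cells, against 8.95, 8.95 and 8.99 in NT cells. No arrays overlapped, with log2 fold changes of 0.86 ± 0.07 (SE, limma adjusted p = 8.74e-08) and 0.34 ± 0.07 (SE, limma adjusted p = 0.0006). Spliced and unspliced XBP1 were not measured apart.

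HSPA5, which encodes BiP, the main ER chaperone of the HSP70 family, rose in both comparisons. Its levels were 10.99, 10.98 and 10.93 in ERC4 cells, against 10.41, 10.56 and 10.40 in parental cells, and 12.65, 12.75 and 12.68 in Esh9-1 cells, against 12.10, 12.14 and 12.13 in NT cells. The groups were separate in each set, and the log2 fold changes were 0.51 ± 0.06 (SE, limma adjusted p = 1.16e-05) and 0.57 ± 0.06 (SE, limma adjusted p = 3.06e-06). DNAJB9, a BiP co-chaperone, rose by 0.80 ± 0.12 in ERC4 and by 0.70 ± 0.12 in Esh9-1 cells. Its parental arrays ran from 5.22 to 5.82, with a mean under the array median. Its second probe set gave 0.04 in ERC4 cells, not called, and 0.46 in Esh9-1 cells. That probe set was dim, averaging 4.04 in ERC4 and 4.00 in parental cells, where the array medians were 5.69 and 5.75. HYOU1, a large HSP70-like chaperone with 2 elements printed above, had log2 levels of 9.04, 9.05 and 9.0004 in ERC4 cells, against 8.75, 8.87 and 8.79 in parental cells, and 11.45, 11.41 and 11.42 in Esh9-1 cells, against 11.10, 10.92 and 11.01 in NT cells. Again no arrays overlapped. HYOU1 rose by 0.23 ± 0.06 in ERC4 and 0.42 ± 0.06 in Esh9-1 cells. Quantile normalization ended the ERC4 calls of HYOU1 and HSP90B1.

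HSP90B1, the ER form of HSP90 (GRP94), rose by 0.35 ± 0.07 in ERC4 cells and was not called in Esh9-1 cells (0.15), where its second probe set was lower (-0.35). MANF, a small ER protein secreted under stress, rose by 0.22 in ERC4 and 0.21 in Esh9-1 cells. Both of its calls were lost without single arrays (parental replicate 2 or ERC4 replicate 1, and NT replicate 2 or Esh9-1 replicate 1 or 2), with limma adjusted p-values up to 0.0829 in ERC4 and 0.139 in Esh9-1 cells. DNAJC3, an ER co-chaperone, and SDF2L1, a component of a BiP complex, were called in neither comparison, at -0.07 and 0.07 in ERC4 and 0.07 and 0.21 in Esh9-1 cells. SDF2L1 in Esh9-1 cells was called without parental replicate 2 (limma adjusted p = 0.038). By their brightest probe sets, 5 of the 7 chaperones and co-chaperones rose in ERC4 and 4 in Esh9-1 cells and 0 fell. Of all genes 28.9% and 25.3% rose, and 28.8% and 24.6% fell. Among the 3987 brightest genes 52.8% rose in ERC4 and 34.8% in Esh9-1 cells, and 16.8% and 32.8% fell. Quantile normalization turned MANF in ERC4 cells to -0.01 and left 2 of the 7 higher there, HSPA5 and DNAJB9. For Esh9-1 cells it left 3 higher over 12 arrays (HSPA5, HYOU1 and DNAJB9) and 4 within each set.

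The lectin chaperones CALR and CANX, which retain glycoproteins until folded, both rose in ERC4 cells. CALR had log2 levels of 10.82, 10.72 and 10.79 in ERC4 cells, against 9.97, 10.23 and 10.10 in parental cells, and CANX had 11.37, 11.30 and 11.24 in ERC4 cells, against 10.58, 10.64 and 10.64 in parental cells. No arrays overlapped, with log2 fold changes of 0.68 ± 0.08 (SE, limma adjusted p = 7.87e-06) and 0.69 ± 0.06 (SE, limma adjusted p = 4.45e-07). All 3 CANX probe sets were higher there, between 0.62 and 0.76, and 2 of 3 CALR probe sets, while 212953_x_at was at -0.08. In Esh9-1 cells CALR fell, with 11.47, 11.41 and 11.47 in Esh9-1 cells, against 11.97, 11.70 and 11.79 in NT cells, a log2 fold change of -0.37 ± 0.08 (SE, limma adjusted p = 0.00156). Its other probe sets there were at -0.32 (200935_at, called) and -0.03 (212953_x_at, not called). CANX was called higher there by its brightest probe set (0.16 ± 0.06 on the log2 scale, SE, limma adjusted p = 0.0434), but 208852_s_at and 208853_s_at were at -0.52 and -0.81 and the mean of the 3 at -0.39. The direction of CANX in Esh9-1 cells therefore depends on the probe set, and the call was also lost without any of ERC4 replicate 2, NT replicates 1, 2 or 3, or Esh9-1 replicates 2 or 3, with limma adjusted p-values up to 0.159.

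Among the disulphide isomerases, PDIA3, which works with the lectin chaperones, had log2 levels of 9.02, 9.19 and 8.81 in ERC4 cells, against 8.58, 8.69 and 8.82 in parental cells, and 11.54, 11.53 and 11.48 in Esh9-1 cells, against 10.96, 10.79 and 10.97 in NT cells. PDIA3 rose by 0.31 ± 0.09 in ERC4 cells and by 0.61 ± 0.09 in Esh9-1 cells. Its ERC4 and parental arrays overlapped while the Esh9-1 and NT arrays did not, and the ERC4 call was lost without parental replicate 1 (limma adjusted p = 0.0523) or ERC4 replicate 2 (0.0685). In Esh9-1 cells PDIA4 was at 0.24 ± 0.09 and PDIA6 at -0.20 ± 0.06, both called. Their other probe sets disagreed, at -0.69 for PDIA4 (208658_at) and at 0.56, -0.28 and -0.51 for PDIA6. The PDIA4 call was lost without NT replicate 2 or Esh9-1 replicate 1 or 2 (limma adjusted p up to 0.154), and the PDIA6 call without NT replicate 3 (0.0514). Neither was called in ERC4 cells (-0.03 and -0.11), where the PDIA6 probe sets ran from -0.35 to 0.39.

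**Figure D4:**
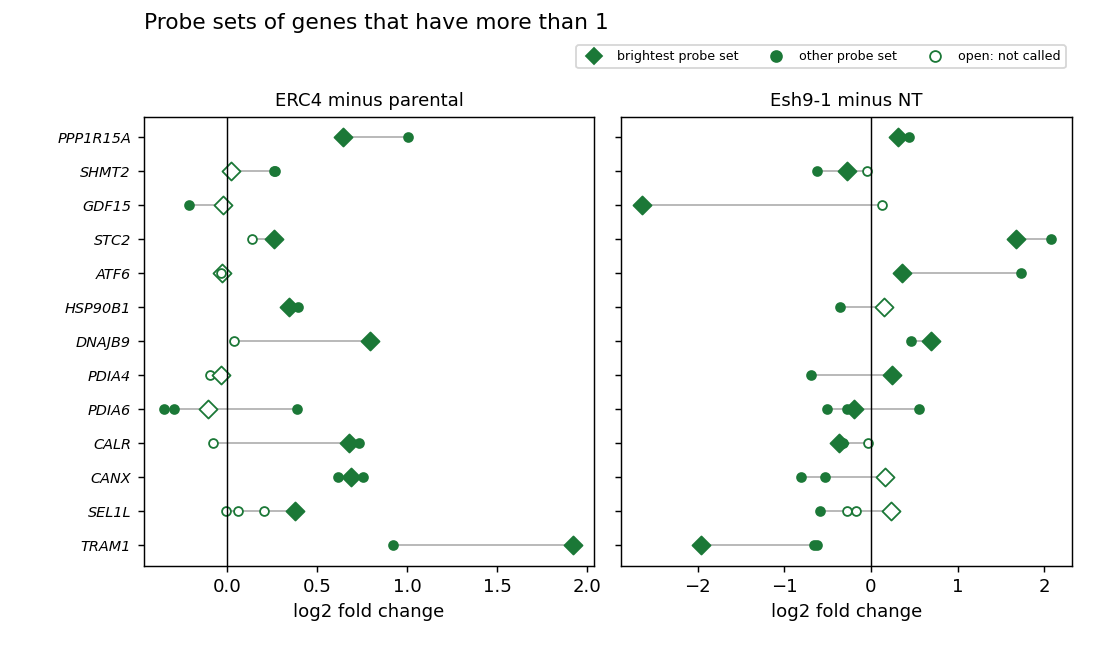
Log2 fold change of every probe set of the 13 genes that have more than 1, with diamonds for the brightest probe set and open symbols for those not called in the fit over all probe sets. The 3 TRAM1 probe sets lie on one side of 0 in each panel, while those of CANX, GDF15, PDIA4, PDIA6, HSP90B1 and SEL1L lie on both sides in Esh9-1 against NT.

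The degradation and translocation genes ended the set. HERPUD1, an ER membrane protein of the degradation complex that held both an ER stress response element II and a C/EBP-ATF element, had log2 levels of 10.79, 10.84 and 10.82 in Esh9-1 cells, against 10.23, 10.19 and 10.30 in NT cells. It rose in Esh9-1 cells (0.58 ± 0.07 on the log2 scale, SE, limma adjusted p = 5.59e-06) and was not called in ERC4 cells (0.11). EDEM1, which directs misfolded glycoproteins to degradation, was called in neither (0.18 in ERC4 and -0.04 in Esh9-1 cells), and without parental replicate 1 it was called in ERC4 cells (0.27, limma adjusted p = 0.0234). SEL1L, the adaptor of the HRD1 ubiquitin ligase, was called higher in ERC4 cells (0.38 ± 0.13) with overlapping arrays, a call lost without parental replicate 1, ERC4 replicate 1 or ERC4 replicate 2 (limma adjusted p up to 0.132). Its other 3 probe sets were not called there. In Esh9-1 cells SEL1L was at 0.23, not called, and 202064_s_at was at -0.59.

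TRAM1, a membrane protein that helps nascent chains into the ER, had the largest opposite changes of the 36 genes. Its log2 levels were 11.01, 10.93 and 10.97 in ERC4 cells, against 9.01, 9.04 and 9.09 in parental cells, and 9.76, 9.96 and 9.96 in Esh9-1 cells, against 12.04, 11.83 and 11.71 in NT cells. Every ERC4 array lay above every parental array and every Esh9-1 array below every NT array. TRAM1 was 3.79-fold higher in ERC4 cells (1.92 ± 0.09 on the log2 scale, SE, limma adjusted p = 3.13e-10) and 3.90-fold lower in Esh9-1 cells (-1.96 ± 0.09 on the log2 scale, SE, limma adjusted p = 8.9e-11). All 3 of its probe sets were called in the same directions, between 0.92 and 1.93 in ERC4 cells and between -1.96 and -0.62 in Esh9-1 cells. The size of the change, however, depends on the probe set. In Esh9-1 cells 201398_s_at gave -0.65 and 210733_at gave -0.62, and in ERC4 cells they gave 1.93 and 0.92. By the fit over all probe sets, 1 of the 13 stress genes with several was called both higher and lower in ERC4 cells (PDIA6). The Esh9-1 comparison had 2 such genes, PDIA4 and PDIA6. Shares over all genes with several were 7.45% and 8.49%. The brightest CANX probe set, called higher in Esh9-1 cells in the fit over genes, was not called in this fit (0.16, limma adjusted p = 0.0505). CANX is therefore not among the 2.

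The difference between the 2 effects was tested as an interaction, ERC4 minus parental less Esh9-1 minus NT, over arrays that the comparisons do not share. It was called for 20 of the 36 genes, against 49.6% over all genes. ATF4-type genes made up 14 of the 20, with 11 higher and 3 lower and a median difference of 0.43, and chaperone genes 6 (4 higher, 2 lower, median 0.04). Among the 3987 brightest genes, which include 26 of the 36, 46.2% were higher and 18.4% lower, with a median difference of 0.22. The median over all genes was -0.03. TRAM1 differed by 3.89 ± 0.12 (SE, limma adjusted p = 1.17e-11), GDF15 by 2.62 ± 0.12 (SE, limma adjusted p = 5.31e-10) and DDIT4 by 1.63 ± 0.11 (SE, limma adjusted p = 1.81e-08). The other TRAM1 probe sets, 201398_s_at and 210733_at, differed by 2.58 and 1.54. STC2 differed by -1.42 ± 0.11 (SE, limma adjusted p = 9.54e-08), being higher mainly in Esh9-1 cells. By their brightest probe sets, 0 of the 7 chaperones and co-chaperones were called in limma's fit. HSPA5 differed by -0.06 ± 0.09 and DNAJB9 by 0.10 ± 0.17. Other probe sets of 2 of the 7 were called in the fit over all probe sets. HSP90B1 216450_x_at differed by 0.75 (limma adjusted p = 0.000755) and the dim DNAJB9 202843_at by -0.42 (limma adjusted p = 0.0413). The 2 sets look normalized apart and differ in spread, and giving both the same spread ended the call of 1 gene, PHGDH, and moved no other across the threshold. Without single arrays the difference was also called for CEBPB (limma adjusted p = 0.00875 without parental replicate 1), PDIA3 (adjusted p = 0.0209 without ERC4 replicate 2, 0.0415 without parental replicate 1) and PDIA4 (adjusted p = 0.0373 without NT replicate 3, 0.0411 without Esh9-1 replicate 3), and it was no longer called for PHGDH without any 1 of 7 arrays (adjusted p up to 0.0976).

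By direction, 12 of the 36 genes rose in both comparisons (13.4% over all genes), 7 of them chaperone genes (XBP1, HSPA5, HYOU1, DNAJB9, MANF, PDIA3 and, by its brightest probe set, CANX) and 5 ATF4-type genes (CEBPB, CEBPG, PPP1R15A, STC2 and VLDLR). DDIT4 fell in both (8.8% over all genes). Another 6 rose in ERC4 and fell in Esh9-1 cells, DDIT3, NUPR1, ASNS, PSAT1, CALR and TRAM1 (6.4% over all genes), and 0 fell in ERC4 and rose in Esh9-1 cells (3.25%). HSP90B1 and SEL1L rose (9.01% over all genes) and ATF4 fell (16.8%) in ERC4 cells and were not called in Esh9-1 cells. PHGDH, ATF6, PDIA4 and HERPUD1 rose (8.56%) and TRIB3, SHMT2, MTHFD2, GDF15 and PDIA6 fell (9.4%) in Esh9-1 cells and were not called in ERC4 cells. ERN1, CHAC1, DNAJC3, SDF2L1 and EDEM1 were called in neither (24.3% over all genes). These shares are over genes of any brightness. Bright genes, which include 26 of the 36, were called higher more often in ERC4 cells.

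**Figure D5:**
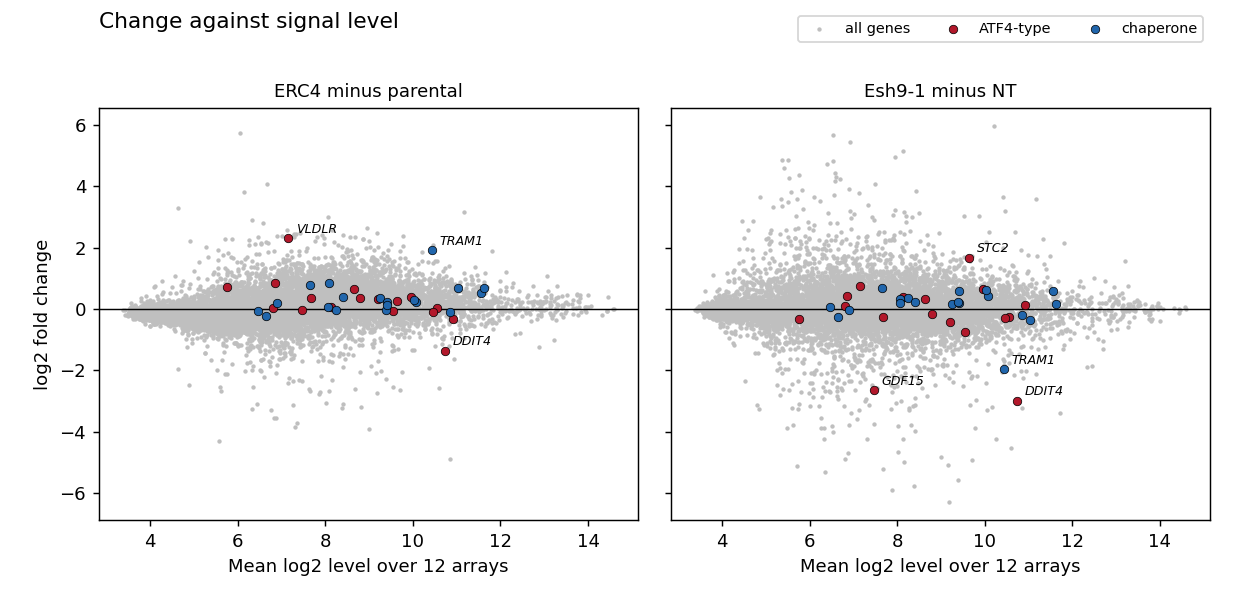
Log2 fold change against mean log2 level over the 12 arrays, for all 11963 genes (grey) and the 36 stress genes (coloured). The stress genes lie mostly at middle and high levels and near 0, with VLDLR, TRAM1, DDIT4, GDF15 and STC2 farthest out.

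Set beside the printed promoter elements, 6 of the 9 chaperone genes that hold an ER stress element rose in ERC4 cells and 0 fell, with a median log2 fold change of 0.35, and 3 of the 8 without one rose and 0 fell, with a median of 0.08. In Esh9-1 cells 5 of the 9 rose and 2 fell (median 0.21), and 4 of the 8 without one rose and 0 fell (median 0.22). Over all genes 28.9% rose in ERC4 and 25.3% in Esh9-1 cells, and among the 3987 brightest genes 52.8% and 34.8%. After quantile normalization over 12 arrays 4 of the 9 were higher and 1 lower (PDIA6) in ERC4 cells with a median of 0.11, and of the 8 without an element 2 were higher and 2 lower, with a median of 0.0069. With so few genes these are counts only. CEBPG rose in both comparisons, ASNS rose in ERC4 and fell in Esh9-1 cells, and CHAC1 was called in neither; all 3 hold the C/EBP-ATF element.

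Other genes of the pathways were read from lists, given as counts called and as median log2 fold changes, which over all genes were -0.04 in ERC4 and -0.02 in Esh9-1 cells. Their counts stand beside the shares of all genes given above, 28.9% higher and 28.8% lower in ERC4 cells and 25.3% higher and 24.6% lower in Esh9-1 cells. Among the 3987 brightest genes 52.8% were higher and 16.8% lower in ERC4 cells, and 34.8% and 32.8% in Esh9-1 cells. The medians of those bright genes were 0.21 and 0.02. The brightness of the listed genes was not allowed for in the counts. Of 10 genes for eIF2alpha kinases, eIF2 subunits and eIF2B 5 rose and 0 fell in ERC4 cells (median 0.19), and 2 rose and 5 fell in Esh9-1 cells (median -0.18). In Esh9-1 cells EIF2AK2, the double-stranded RNA sensor PKR, was at -1.13 and EIF2B2, a subunit of the eIF2 exchange factor, at -0.70; EIF2B2 was at 0.75 in ERC4 cells. Of 16 other ATF4 targets 8 rose and 3 fell in ERC4 cells (median 0.36), and 10 rose and 2 fell in Esh9-1 cells (median 0.32). SLC7A5, a large neutral amino acid transporter, was at 1.36 in ERC4 and 1.04 in Esh9-1 cells, and XPOT, the tRNA exporter, was at 1.27 in ERC4 cells. LAMP3, a lysosomal membrane protein, was at -2.10 and SLC6A9, a glycine transporter, at -1.29 in Esh9-1 cells. Among 16 cytosolic aminoacyl-tRNA synthetases 6 rose and 1 fell in ERC4 cells (median 0.12, NARS1 0.92), and 9 rose and 3 fell in Esh9-1 cells (median 0.31, LARS1 0.84, WARS1 -1.16). Of 8 further serine and folate enzymes 4 rose and 2 fell in ERC4 cells (median 0.29), with MTR, methionine synthase, at 1.37, and 2 rose and 3 fell in Esh9-1 cells (median -0.08).

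Of the 19 genes of ER translocation and signal cleavage, to which TRAM1 is related by role, 13 rose and 3 fell in ERC4 cells (median 0.56), and 8 rose and 7 fell in Esh9-1 cells (median 0.13). SPCS2, a signal peptidase subunit, was at 1.58 in ERC4 cells, and SPCS3 at 1.40 and SSR1 at 1.06 in Esh9-1 cells. Among 13 other genes of ER-associated degradation 7 rose and 2 fell in ERC4 cells (median 0.17, UBE2J1 1.06), and 5 rose and 1 fell in Esh9-1 cells (median 0.11, DERL2 0.51). Of 16 other ER folding genes 5 rose and 6 fell in ERC4 cells (median -0.12), and 7 rose and 7 fell in Esh9-1 cells (median 0.10), with the peroxiredoxin PRDX4 at 1.73 and the oxidase ERO1A at -1.08. Of 10 further ER stress transducers 2 rose and 4 fell in ERC4 cells (median -0.08), and 5 rose and 2 fell in Esh9-1 cells (median 0.17), where CREB3L1, a membrane-bound transcription factor, was at 1.66 and EIF2AK3, which encodes PERK, at -0.25.

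Chaperones outside the ER gave a comparison by compartment. Of 15 cytosolic heat shock genes 6 rose and 2 fell in ERC4 cells (median 0.13), with CHORDC1, an HSP90 co-chaperone, at 2.34 and HSPH1 at 1.23. In Esh9-1 cells 6 rose and 5 fell (median 0.09), with HSPH1 at 1.10 and the small heat shock protein HSPB1 at -1.30. Of 11 mitochondrial chaperones and proteases 7 rose and 0 fell in ERC4 cells (median 0.19, CLPX 1.18), and 2 rose and 4 fell in Esh9-1 cells (median 0.01, DNAJA3 -0.56).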

How the data were processed

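Transcripts were measured on Affymetrix arrays of 22277 probe sets. The authors deposited linear-scale intensities. Per the submitters' processing notes these came from RMA, whose version and grouping of arrays the sources used here do not give. Intensities were taken to log2(value + 1). The platform annotation gave a single symbol to 19070 probe sets, and the brightest of these by mean over 12 arrays stood for each of 11963 genes. Groups came from sample titles, since another label calls all 12 samples resistant. 1 linear model with empirical Bayes moderation and 8 residual degrees of freedom, in limma 3.58.1 and R 4.3.3, was fitted to all genes, and adjusted p-values are Benjamini-Hochberg over all genes and two-sided. The fit was tested on simulated data. The genes and lists were chosen with earlier results of these data known, and all 36 genes are named; of each list, up to 2 called genes per direction and comparison with the largest change, reaching the median log2 value of 6.37 in the higher group, could be named. Alternatives covered normalization, pseudocount, dim genes, probe sets, threshold, fit, replicate block and single arrays. The number of arrays limits the precision. Promoters came from RefSeq (GRCh38.p14) and were searched in Python 3.11.15. Figures used matplotlib 3.10.9. Protein sequences were not used here.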

Additional observations from a re-analysis of the deposited data

Results flagged for a closer look

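For 20 of the 36 genes the effect in ERC4 against parental cells differed from that in Esh9-1 against NT cells, by limma's interaction contrast with Benjamini-Hochberg adjustment over all genes, where 49.6% of all genes did so. Values in parentheses are the difference on the log2 scale, ERC4 minus parental less Esh9-1 minus NT. The effects were in opposite directions, and called in both comparisons, for TRAM1 (3.89), CALR (1.04), NUPR1 (1.04), PSAT1 (0.74), DDIT3 (0.61) and ASNS (0.53). Both effects were called in the same direction, with unequal sizes, for DDIT4 (1.63), VLDLR (1.54), STC2 (-1.42), CANX (0.52), XBP1 (0.52), CEBPG (0.43) and PPP1R15A (0.34), the CANX direction in Esh9-1 cells depending on the probe set. The effect was called in Esh9-1 cells and not in ERC4 cells for GDF15 (2.62), TRIB3 (0.70), HERPUD1 (-0.46), ATF6 (-0.39), PHGDH (-0.32) and SHMT2 (0.30). It was called in ERC4 cells and not in Esh9-1 cells for ATF4 (-0.46). A second probe set of GDF15 gave -0.34, and the other TRAM1 probe sets gave 2.58 and 1.54. Those of CALR gave 1.05 (200935_at) and -0.04 (212953_x_at), the last not called in either comparison or for the difference. The call for PHGDH (adjusted p = 0.0368) was lost without any 1 of 7 arrays (adjusted p up to 0.0976) and when the ERC4 and parental values were stretched to the spread of the other set (adjusted p = 0.0623). Groups of 3 arrays are too small for a test of single arrays that stand apart. The causes of these differences were not tested.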

How the results depend on the processing

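The counts of called genes kept within 1.5 times of their value under most alternatives, and the exceptions follow. At a change of at least 2-fold, 3 of the stress genes were called in ERC4 against parental cells in place of 22 (ATF4-type 1 higher and 1 lower, chaperone 1 higher), 4 in Esh9-1 against NT cells in place of 28 (ATF4-type 1 higher and 2 lower, chaperone 0 higher and 1 lower), and 7 for the difference of effects in place of 20 (ATF4-type 4 higher and 1 lower, chaperone 2 higher and 0 lower); over all genes 753, 1077 and 1295 remained past that fold, in place of 6902, 5966 and 5936. Quantile normalization over 12 arrays and within each set left 7 and 6 chaperone genes higher in ERC4 cells in place of 11, made 3 lower in place of 0 and 5 ATF4-type genes lower in place of 2, and for the difference of effects gave 5 chaperone genes lower in place of 2. It ended the ERC4 calls of CEBPB, PSAT1, STC2, HSP90B1, HYOU1, PDIA3 and SEL1L. It turned MANF in ERC4 cells to -0.0114 over 12 arrays and -0.0105 within each set, and SHMT2 to -0.15 and -0.16 (adjusted p = 0.0456 and 0.0377). Empirical Bayes with trend and robust settings gave 1 chaperone gene lower in ERC4 cells and 5 for the difference. Averaging all probe sets of a gene gave 5 chaperone genes lower in Esh9-1 cells in place of 3, with PDIA4 at -0.23, CANX at -0.39 and SEL1L at -0.20. Leaving out each array in turn moved the chaperone genes lower in ERC4 cells between 0 and 1. The cause of these shifts was not tested.

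Other probe sets reversed the sign in ERC4 cells for PDIA6 (208638_at, 0.39), CALR (212953_x_at, -0.0779) and SEL1L (202063_s_at, -0.0036). In Esh9-1 cells they reversed GDF15 (221576_at, 0.13), HSP90B1 (216450_x_at, -0.35), PDIA4 (208658_at, -0.69), PDIA6 (208638_at, 0.56), CANX (208852_s_at and 208853_s_at, -0.52 and -0.81) and SEL1L (202064_s_at, -0.59). For the difference of effects they reversed GDF15 (221576_at, -0.34), DNAJB9 (202843_at, -0.42), PDIA4 (208658_at, 0.60) and CALR (212953_x_at, -0.0448). Of these probe sets, 221576_at, 202843_at and 202063_s_at averaged under the array median in every group. No other sign of a called value turned in the alternatives run.

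The replicate numbers did not pair the arrays: deviations of same-numbered arrays correlated at 0.04, 0.07 and 0.0021 for ERC4 and parental cells and at -0.12, -0.02 and -0.11 for Esh9-1 and NT cells. With the replicate number as a block, 22 stress genes were called in ERC4 and 26 in Esh9-1 cells and 20 for the difference; the calls lost in Esh9-1 cells were ASNS (adjusted p = 0.0603) and CANX (adjusted p = 0.0668).

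With 3 arrays per group, small changes can be missed. On simulated data the fit recovered 73.8% of the genes given a log2 change of 0.5 in the ERC4 comparison and 72.5% in the Esh9-1 comparison. There 80 of the 11963 genes had that change, 80 a change of 1 and 40 a change of 2. In the data 57.7% and 49.9% of genes were called, so the cutoff for a call differs. The simulated shares therefore do not give the sensitivity of the fit to these data. CEBPG, NUPR1, CHAC1, VLDLR, DNAJB9 and DNAJC3 in parental cells, CHAC1 and DNAJC3 in ERC4 cells, NUPR1 and GDF15 in Esh9-1 cells and NUPR1 in NT cells lie under the array medians, where fold changes are understated.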
